A study of Mus musculus with 12 samples.

Results

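The Notch pathway machinery was followed as 38 named genes across 12 RNA sequencing libraries, out of 23284 gene symbols in the deposited tables. The members are 3 Notch receptors, 4 ligands, 4 glycosylation enzymes, 3 proteases, 4 subunits of gamma-secretase, 9 ubiquitin ligases and trafficking factors, 7 proteins of the activating nuclear complex and 4 corepressors. All 38 symbols were found, 29 had a mean of at least 1 FPKM (a level per length: sequenced fragments divided by transcript length and by the library's mapped fragments) over the 12 libraries, and 9 lay under that level. Notch signaling works by cleavage. The receptor is cut by furin on its way to the cell surface, ligand on a neighbouring cell exposes a site for an ADAM protease, and gamma-secretase then frees the intracellular domain. That domain joins the DNA-binding protein Rbpj and a Mastermind coactivator on target genes, and corepressors hold Rbpj silent in its absence. The pathway directs early thymocytes into the T lineage, and activating Notch1 mutations are common in T cell acute lymphoblastic leukemia.

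The cells were the mouse T lymphoblastic leukemia line 8946, transduced with a pair of retroviruses and sorted for both markers, GFP and NGFR, so that every library came from doubly transduced cells. In the control both viruses were empty (MigR1 and NGFR). The combined group received the Notch1 mutant L1601P with GFP and Zmiz1 with NGFR, where L1601P is a change in the part of the receptor that normally keeps it uncleaved without ligand, and Zmiz1 is a PIAS-like transcriptional coactivator. The single-vector groups received 1 loaded and 1 empty virus. The labels of these 2 groups contradict each other: under the title Zmiz1 the cell line field reads L1601P with NGFR, and under the title Notch1 it reads MigR1 with Zmiz1. Titles and deposited column headers name the same groups, and the groups are called Zmiz1-titled and Notch1-titled after them. By the cell line field these 2 names would be exchanged. Each group had 3 libraries. Whether replicates came from separate transductions is not stated, so p-values measure only the spread between these libraries.

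The vector genes went with the titles: Zmiz1 was at 67.7 to 74.4 FPKM in the Zmiz1-titled libraries, 47.6 to 51.0 in the combined libraries and at most 0.221 elsewhere. It was lower in combined than in Zmiz1-titled libraries (limma log2 difference -0.51, adjusted p = 0.000312). The mouse gene Ngfr was at 82.8 to 88.9 FPKM in control and 61.4 to 80.3 in Notch1-titled libraries. In Zmiz1-titled libraries it was at 7.23 to 7.71 and in combined libraries at 5.62 to 5.66. Why Ngfr differed was not tested. FPKM sums were 549098 to 606908 per library. Read totals are not in the tables, and depth relative to the other libraries, estimated from the smallest FPKM steps, ran from 0.746 for Zmiz1-titled replicate 2 to 1.25 for Notch1-titled replicate 1. Zmiz1-titled replicate 2 and Notch1-titled replicate 3 stood apart from the rest (mean correlation with the other libraries 0.942 and 0.949). All 10 T cell markers on a list were at a mean of at least 1 FPKM (summed level 2800 to 3840). The 5 B cell markers summed to at most 0.554 FPKM, and the erythroid marker Hbb-b1, the stromal markers Col3a1 and Dcn and the endothelial marker Cdh5 were listed at 0 in all 12 libraries. Of 5 myeloid markers only Itgam reached 1 FPKM, at 97.7 to 102 in the control, 91.3 to 100 in Zmiz1-titled, 50.9 to 58.2 in Notch1-titled and 59.1 to 61.5 in combined libraries, while Lyz2, Csf1r, Cd14 and Mpo stayed at or below 0.24. Pecam1 and Epor were likewise the only endothelial and erythroid markers above 1 FPKM. Pecam1 was high, at 115 to 124 in the control, 90.9 to 130 in Zmiz1-titled, 83.7 to 92.2 in Notch1-titled and 89.3 to 103 in combined libraries. Epor lay between 1.67 and 4.63. The other listed endothelial, erythroid and stromal markers stayed at or below 0.966, the highest being Col1a2 in the control. The part of these markers in the results was not tested.

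Apart from Notch1 itself, which the vector carried in 2 groups, few members were called. Few of all genes tested were called either, so this is not particular to the pathway. Notch1 was the only member of the 29 tested that passed limma's threshold (adjusted p under 0.05 over all 10152 genes tested) in Notch1-titled against control, where 5.49% of all genes passed. The same count, 1 of 29, held for combined against Zmiz1-titled (3.86% of all genes) and for combined against control (6.46%). The vector carried Notch1 in the first-named group of each of these comparisons, so its call was set by the design. Of the other 28 members tested, 0 passed in each. In combined against control a single member under 1 FPKM, the ligand Jag2, fell as well, in the fit of all genes above 0, where 4.40% of genes passed. Of the 29, 0 passed in limma for Zmiz1-titled against control (2.11% of all genes), and 0 of 29 were at an unadjusted p under 0.05, against 12.8% of all genes tested. For combined against Notch1-titled 0 of 29 passed (1.51% of all genes), and 1 of 29, the ubiquitin ligase Dtx4, had an unadjusted p under 0.05, against 9.0% of all genes. The interaction asks whether the Notch1 vector made a different change where Zmiz1 was present. There 0 of 29 passed in limma (0.0690% of all genes) and 0 of 29 had an unadjusted p under 0.05 (3.27% of all genes). Of the 9 members under 1 FPKM, 0 passed in limma in the 5 comparisons other than combined against control. The background in that fit was 3.56% of genes for Notch1-titled against control, 2.55% for combined against Zmiz1-titled, 1.64% for Zmiz1-titled against control, 1.15% for combined against Notch1-titled and 0.107% for the interaction. In the same order, 0, 2, 3, 1 and 0 of the 9 had an unadjusted p under 0.05, against 15.1%, 13%, 11.7%, 8.62% and 4.24% of all genes above 0.

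**Figure D1:**
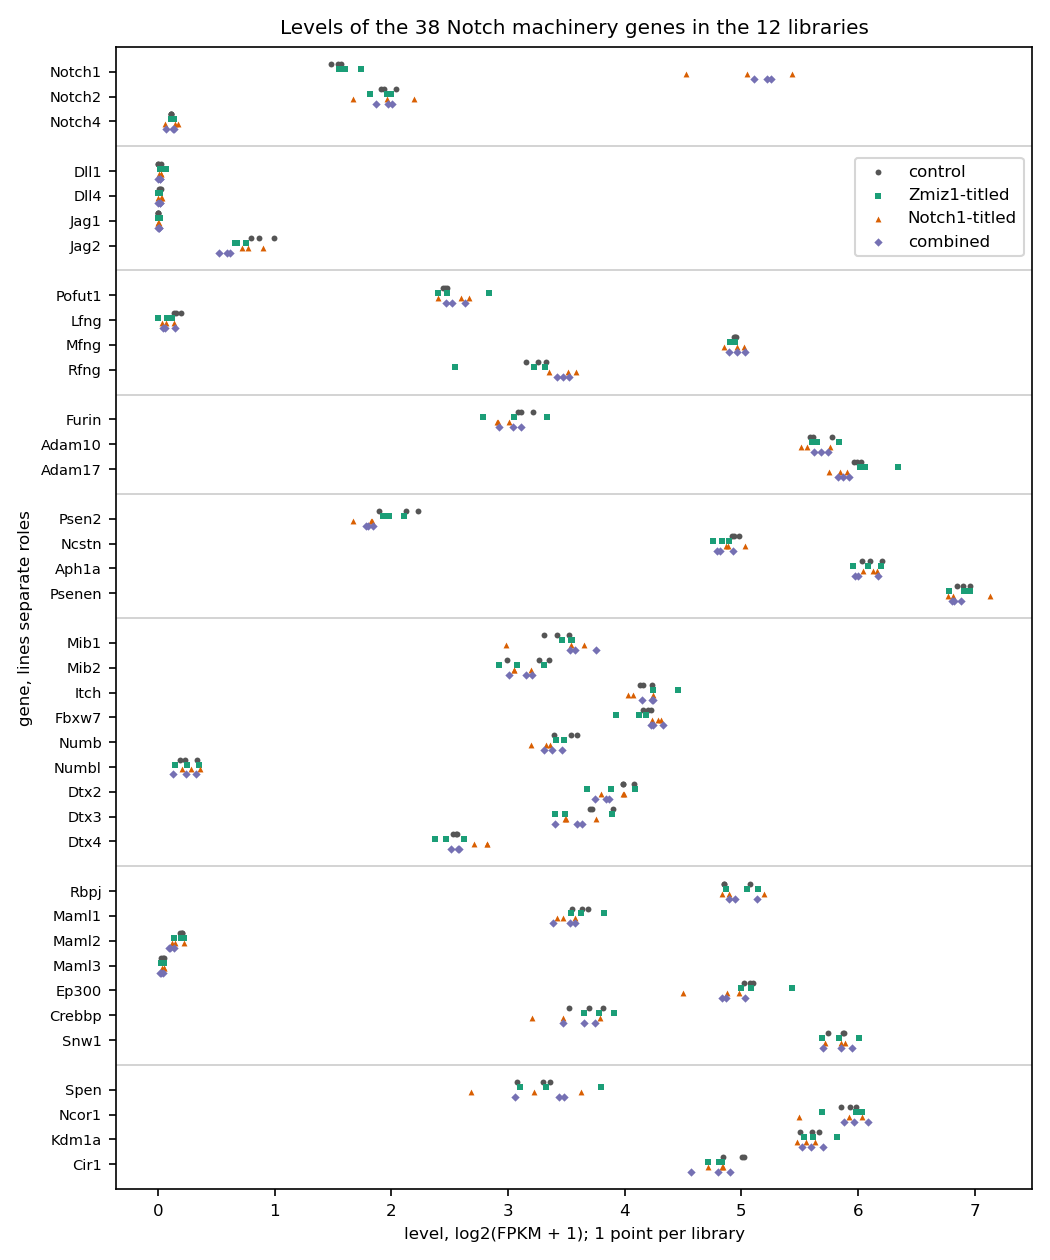
Level of each of the 38 genes as log2(FPKM + 1), with 1 point per library and a colour and marker per group; horizontal lines separate the roles from receptors at the top to corepressors at the bottom. The 12 points of most genes lie close together, Notch1 splits into a low and a high set of 6 libraries, and the ligands Dll1, Dll4 and Jag1 sit at the left edge.

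Notch1 (chromosome 2, 26457903 to 26516663, GRCm38), the receptor most often mutated in this leukemia, was low without the Notch1 vector. Its level was 1.91, 1.97 and 1.80 FPKM in control replicates 1 to 3 and 2.04, 1.92 and 2.34 in Zmiz1-titled replicates 1 to 3. In Notch1-titled replicates 1 to 3 it was 32.0, 42.2 and 22.1 FPKM, and in combined replicates 33.5, 36.2 and 37.2. The 6 libraries with the vector did not overlap the other 6, and the widest spread was within the Notch1-titled group. The ratio of mean FPKM was 17.0 in Notch1-titled against control (log2 fold change of FPKM + 1 of 3.47, SE 0.17, adjusted p = 1.18e-06) and 17.0 in combined against Zmiz1-titled (3.56, adjusted p = 9.03e-07). Combined and Notch1-titled libraries differed by 0.19 (95% interval -0.19 to 0.57, adjusted p = 0.933), and by -0.05 without Notch1-titled replicate 3. The values count all reads that aligned to the mouse gene, viral and endogenous together. Which species the vector's Notch1 came from, and how much of the gene it held, is not stated.

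Neither of the other receptors was called in any comparison. Notch2 (chromosome 3, 98013527 to 98150361), a receptor with broad expression in hematopoietic cells, had group means (± SD over the 3 libraries, as in all later means) of 2.90 ± 0.185 FPKM for the control, 2.86 ± 0.186 for the combined, 2.88 ± 0.695 for the Notch1-titled and 2.81 ± 0.253 for the Zmiz1-titled group. Without the Notch1 vector, Notch2 was the more abundant receptor per length: its 6 libraries lay between 2.52 and 3.11 FPKM, all above the 1.80 to 2.34 of Notch1. With the vector the order was the reverse. Notch4, best known from endothelium, was a trace: 0.0784, 0.0771 and 0.0797 FPKM in control, 0.0982, 0.0777 and 0.0970 in Zmiz1-titled, 0.0434, 0.122 and 0.107 in Notch1-titled and 0.0494, 0.101 and 0.0957 in combined libraries. Its groups overlapped in every comparison.

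**Figure D2:**
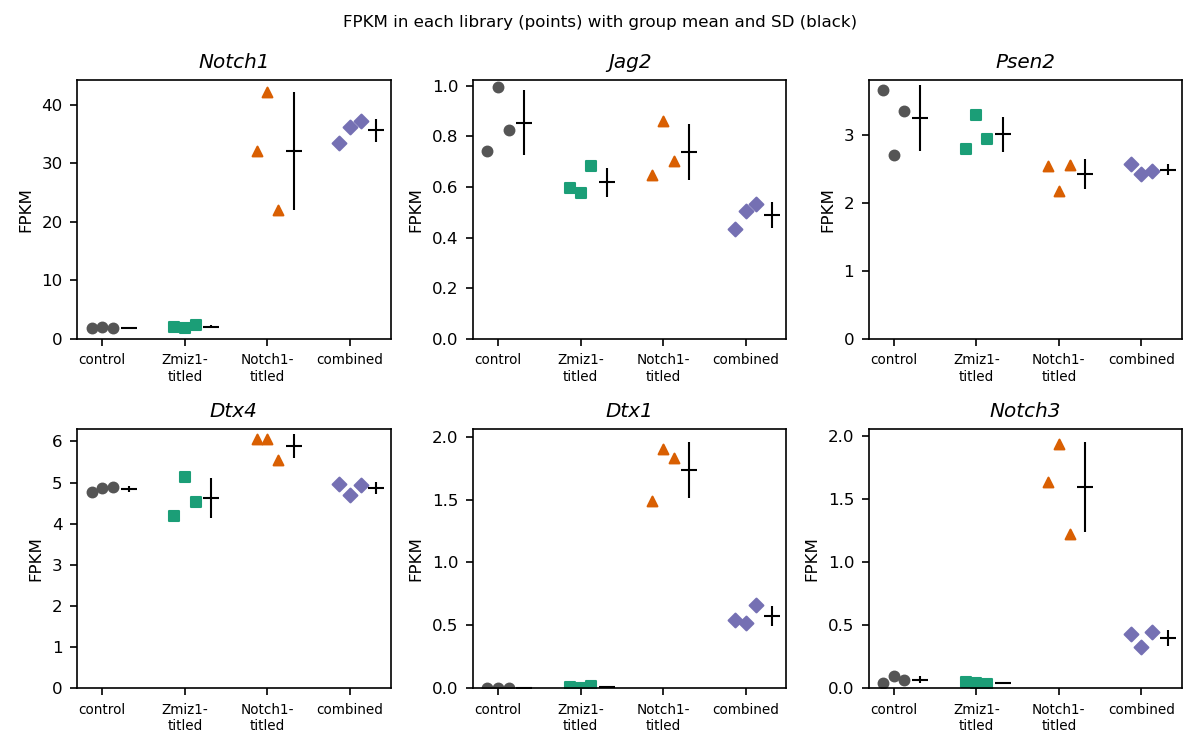
FPKM of 6 pathway genes in each library, with 3 points per group and the group mean ± SD as a black bar beside them; each vertical axis starts at 0. Notch1 is high in Notch1-titled and combined libraries, Jag2 is lowest in the combined libraries, Dtx4 is highest in Notch1-titled libraries, and Dtx1 and Notch3 follow the order Notch1-titled, combined, other groups.

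Ligands were scarce. Jag1 was listed at 0 in 8 of 12 libraries and was at 0.0122 FPKM in Zmiz1-titled replicate 1, 0.00497 in Notch1-titled replicate 3 and 0.00611 and 0.00579 in combined replicates 2 and 3. Dll4, the ligand that thymic epithelium presents to T cell progenitors, reached at most 0.0249 FPKM and Dll1 at most 0.0474. At these levels no difference between groups was detectable. Jag2 (chromosome 12, 112907819 to 112929776), a ligand of the Serrate class, was the one ligand above trace level. It was at 0.742, 0.995 and 0.826 FPKM in control replicates 1 to 3, 0.595, 0.576 and 0.684 in Zmiz1-titled, 0.647, 0.862 and 0.704 in Notch1-titled and 0.434, 0.503 and 0.533 in combined libraries. All 3 combined libraries lay below all 9 others. Jag2 fell in combined against control libraries, to a ratio of mean FPKM of 0.574 (log2 fold change of FPKM + 1 of -0.31, SE 0.06, adjusted p = 0.0167). Jag2 kept the call in 19 of 23 alternatives and lost it without control replicate 2 (adjusted p = 0.0588), control replicate 3 (0.0526), combined replicate 1 (0.0730) or combined replicate 2 (0.0587). In Zmiz1-titled against control libraries the groups did not overlap either, with a ratio of 0.724 (adjusted p = 0.192), and in combined against Notch1-titled the ratio was 0.665 (adjusted p = 0.166). The interaction of the 2 vectors on Jag2 was -0.03 (95% interval -0.21 to 0.16, adjusted p = 1). In bulk RNA, fewer expressing cells and less RNA per cell cannot be told apart.

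Glycosylation enzymes set which ligands a receptor answers to. Pofut1, which adds the fucose that Fringe enzymes extend, lay between 4.27 and 6.13 FPKM over the 12 libraries. Of the 3 Fringe genes, Mfng was the most abundant per length, Rfng came next and Lfng, the Fringe with a known role in early thymocytes, was nearly absent. Lfng was at 0.144, 0.0976 and 0.115 FPKM in control, 0, 0.0551 and 0.0853 in Zmiz1-titled, 0.0473, 0.0259 and 0.101 in Notch1-titled and 0.0433, 0.109 and 0.0294 in combined libraries. The control held the highest value and the Zmiz1-titled group lay below it without overlap, but was not called (adjusted p = 0.350). Mfng was also the steadiest of the 28 tested members other than Notch1, with 29.8, 30.03 and 29.5 FPKM in control, 28.9, 29.9 and 28.9 in Zmiz1-titled, 27.8, 30.2 and 31.5 in Notch1-titled and 28.7, 31.7 and 30.3 in combined libraries. All groups overlapped, and its difference between Notch1-titled and control libraries was 0.00 (95% interval -0.12 to 0.13). Rfng was 7.90, 8.56 and 9.05 FPKM in the control, 8.32, 4.83 and 8.99 in Zmiz1-titled, 9.21, 10.4 and 10.98 in Notch1-titled and 9.70, 10.5 and 10.06 in combined libraries. All 6 libraries with the Notch1 vector lay above the 6 without it, and the ratio of means against control was 1.20 in Notch1-titled and 1.18 in combined libraries, neither past the threshold (adjusted p = 0.507 and 0.542). Zmiz1-titled replicate 2 held the lowest Rfng value. Without it adjusted p was 0.0720 and 0.0842, still above the threshold.

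The 3 proteases were present at unequal levels. Adam17 averaged 62.8 ± 1.36 FPKM and Adam10, the main protease for ligand-bound Notch, 49.6 ± 3.61 in the control, while Furin averaged 7.78 ± 0.416. By library Furin was at 7.46, 7.64 and 8.26 FPKM in control, 7.31, 5.91 and 9.10 in Zmiz1-titled, 6.51, 7.04 and 6.47 in Notch1-titled and 6.59, 7.62 and 7.23 in combined libraries. The Notch1-titled libraries lay below the control without overlap, at a log2 difference of -0.19 that did not pass (adjusted p = 0.418). Adam10 stayed between 44.7 and 56.1 FPKM over all 12 libraries and no group stood apart. Adam17 was 64.2, 62.8 and 61.5 FPKM in control, 65.8, 79.99 and 63.6 in Zmiz1-titled, 58.9, 56.4 and 53.0 in Notch1-titled and 59.8, 55.8 and 57.7 in combined libraries. The 6 libraries with the Notch1 vector were below the 6 without it. The share of all genes that split 6 against 6 is not given, here or for Rfng and Psen2. The log2 difference of Adam17 was -0.16 in Notch1-titled against control (adjusted p = 0.327) and -0.26 in combined against Zmiz1-titled (adjusted p = 0.120), neither past the threshold. The latter was -0.16 without Zmiz1-titled replicate 2, which held the highest Adam17 value. Adam17 shares 311 of 4508 exon bases with Iah1 on the other strand. The library kit keeps no strand, so these reads cannot be assigned. The same holds for 445 of 2863 exon bases of Aph1a (Car14), 195 of 2901 of Ncstn (Copa) and 101 of 2821 of Cir1 (Scrn3).

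Gamma-secretase subunits spanned a wide range per length. Psenen, which activates the enzyme's catalytic subunit, averaged 119 ± 4.87 FPKM in the control, Aph1a, a scaffold subunit, 68.5 ± 4.09, Ncstn (nicastrin), the substrate receptor, 29.8 ± 0.698, and Psen2, a catalytic subunit, 3.25 ± 0.488. Psen2 was 3.67, 2.72 and 3.36 FPKM in control, 2.80, 3.30 and 2.95 in Zmiz1-titled, 2.55, 2.18 and 2.57 in Notch1-titled and 2.58, 2.43 and 2.48 in combined libraries. Every library with the Notch1 vector was, for Psen2, below every library without it. The ratio of means was 0.748 in Notch1-titled against control (log2 difference -0.30, 95% interval -0.51 to -0.10, adjusted p = 0.0957) and 0.768 in combined against control (-0.28, adjusted p = 0.128). These missed the threshold, except that the first passed without control replicate 2 (-0.40, adjusted p = 0.0453). Psenen was at 118, 124 and 114 FPKM in control, 123, 109 and 119 in Zmiz1-titled, 111, 108 and 139.6 in Notch1-titled and 112, 117 and 111 in combined libraries, with Notch1-titled replicate 3 the highest of the 12. Ncstn, Aph1a and Psenen differed from the control by between -0.12 and 0.00 on the log2 scale in all 3 vector groups, and none passed.

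Ubiquitin ligases and trafficking factors decide how long receptors and their cleaved forms persist. Dtx4, a Deltex ubiquitin ligase (chromosome 19, 12466338 to 12501454), was high in the Notch1-titled group alone. It was 4.78, 4.87 and 4.91 FPKM in control, 4.19, 5.14 and 4.53 in Zmiz1-titled, 6.07, 6.06 and 5.55 in Notch1-titled and 4.98, 4.70 and 4.94 in combined libraries. The 3 Notch1-titled libraries were above all 9 others, and the combined libraries lay at the control level. The log2 difference was 0.24 in Notch1-titled against control (95% interval 0.08 to 0.39, adjusted p = 0.0802) and -0.23 in combined against Notch1-titled (-0.38 to -0.08, adjusted p = 0.193). Neither passed, but both passed without Zmiz1-titled replicate 2, which takes part in neither comparison but in the shared variance (adjusted p = 0.0190 and 0.0441), and after a correction for transcript length chosen after seeing the data (0.0188 and 0.0367). The interaction was -0.17 (95% interval -0.39 to 0.05, adjusted p = 0.999), and -0.10 without Zmiz1-titled replicate 2.

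The remaining ligases and trafficking factors gave no call. Numb, an adaptor that sends Notch to degradation, averaged 10.4 ± 0.783 FPKM in control and 8.83 ± 0.582 in Notch1-titled libraries, without overlap (log2 difference -0.21, adjusted p = 0.119), and the groups overlapped in combined against control (9.44 ± 0.557 FPKM in combined libraries). Its relative Numbl was scarce, at 0.176, 0.138 and 0.261 FPKM in control, 0.107, 0.272 and 0.187 in Zmiz1-titled, 0.213, 0.149 and 0.281 in Notch1-titled and 0.2501, 0.0894 and 0.182 in combined libraries. Fbxw7, the substrate receptor that marks the cleaved Notch1 domain for destruction and is often mutated in this leukemia, lay between 14.2 and 19.1 FPKM. It differed by 0.08 between Notch1-titled and control libraries (95% interval -0.07 to 0.23) and by 0.19 between combined and Zmiz1-titled libraries (0.04 to 0.34, adjusted p = 0.193), the latter 0.11 without Zmiz1-titled replicate 2. Itch, a ligase that targets Notch, and Fbxw7 were the most abundant of this role, with means over the 12 libraries that both rounded to 17.5 FPKM. Itch was at 17.9, 16.5 and 16.9 FPKM in control, 17.9, 21.01 and 17.9 in Zmiz1-titled, 17.9, 15.8 and 15.3 in Notch1-titled and 17.9, 16.7 and 17.8 in combined libraries. The log2 difference of Itch in Zmiz1-titled against control libraries was 0.14, which did not pass (adjusted p = 0.514), and 0.07 without Zmiz1-titled replicate 2, the highest library. Mib1 and Mib2, which act on ligands in the signal-sending cell, ranged from 6.90 to 12.5 and from 6.58 to 9.22 FPKM. Dtx2 ranged from 11.8 to 15.99 and Dtx3 from 9.57 to 13.9 FPKM, with combined below control libraries in both (log2 differences under 0.25 in size, none called).

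Rbpj (chromosome 5, 53466152 to 53657362), the DNA-binding protein of the pathway, was abundant and was not called in any comparison. It ranged from 27.6 to 35.5 FPKM over the 12 libraries, and group means ran from 29.5 ± 2.76 FPKM (control) to 31.6 ± 3.05 (Zmiz1-titled). The log2 difference in combined against control libraries was 0.06 (95% interval -0.18 to 0.31). Maml1 was the only Mastermind coactivator above 1 FPKM, between 9.47 and 13.1, whereas Maml2 stayed at or below 0.167. Maml3 was at 0.0310, 0.0184 and 0.0333 FPKM in control, 0.0170, 0.0182 and 0.0328 in Zmiz1-titled, 0.0381, 0.0342 and 0.0209 in Notch1-titled and 0.0127, 0.0154 and 0.0291 in combined libraries, with all groups overlapping. Maml2 lay at a mean of 0.0813 FPKM in combined and 0.149 in control libraries without overlap, which missed the threshold (adjusted p = 0.151) and passed with only those 2 groups in the fit (0.0269) or without both libraries that stood apart (0.0284). Snw1, which joins Rbpj complexes and the spliceosome, was the most abundant of this role. It was at 52.6, 57.8 and 57.4 FPKM in control, 50.8, 63.5 and 56.3 in Zmiz1-titled, 51.7, 56.9 and 58.1 in Notch1-titled and 51.1, 56.7 and 60.8 in combined libraries, again overlapping. Snw1 shares 971 of 2232 exon bases with Slirp on the other strand. The histone acetyltransferases Ep300 and Crebbp averaged 32.5 ± 0.844 and 11.8 ± 1.29 FPKM in the control. Ep300 was below the control in all 3 Notch1-titled libraries (28.3, 30.5 and 21.7 FPKM), at a log2 difference of -0.28 (adjusted p = 0.291) that was -0.14 without Notch1-titled replicate 3.

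Rbpj recognizes the core TGGGAA, and the members' own promoters were searched for it, since Notch signaling can act on genes of its own pathway. RefSeq promoters (GRCm38.p6) were at hand for 32 of the 38 members, and the 250 bases before each start were read on both strands. The core occurred in 9 of the 32 genes (28.1%), against 24.1% of 27025 genes in the same table. The longer form GTGGGAA, which contains the core, occurred in 3 members, Lfng, Spen and Psen2, against 6.18% of genes. The windows of 30 bases below run 5′ to 3′ along the gene, with the core or its reverse complement TTCCCA in capitals, for these 3 genes and for both matches of Rbpj itself.
Lfng chr5:140607221-140607250 (+), 108 bases before the start: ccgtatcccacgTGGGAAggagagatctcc
Spen chr4:141538598-141538627 (-), 8 bases before the start: ggaggcgggccgcgcgcgccggTGGGAAgc
Psen2 chr1:180246022-180246051 (-), 89 bases before an annotated start: agcacaggagacTTCCCAcagatgtttatc
Rbpj chr5:53590185-53590214 (+), 149 bases before an annotated start: aatgaaaaaggcTGGGAAcccgcggcgagc
Rbpj chr5:53590269-53590298 (+), 65 bases before an annotated start: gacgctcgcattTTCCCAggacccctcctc
None of these 4 genes passed the threshold in any of the 6 comparisons, and Notch1, Jag2 and Numb had no match in their windows. A match describes letters in a short stretch, and binding was not measured here.

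All 4 corepressors were expressed. Ncor1, a scaffold of histone deacetylase complexes, averaged 59.6 ± 2.71 FPKM in the control, Kdm1a, a histone demethylase, 47.3 ± 2.82, Cir1, which links Rbpj to deacetylases, 30.04 ± 2.07, and Spen, the large RNA-binding corepressor that contacts Rbpj, 8.51 ± 0.948. By library Ncor1 was at 56.8, 59.9 and 62.2 FPKM in control, 62.3, 50.5 and 64.6 in Zmiz1-titled, 59.8, 64.7 and 43.95 in Notch1-titled and 57.9, 61.6 and 66.8 in combined libraries, and the lowest values were in the pair of libraries that stood apart. Cir1 averaged 26.6 ± 1.11 in Zmiz1-titled, 26.8 ± 1.42 in Notch1-titled and 26.1 ± 3.07 FPKM in combined libraries. It was not called against the control in any vector group (log2 differences -0.17, -0.16 and -0.20, adjusted p = 0.460, 0.379 and 0.245). With replicate number added to the limma model, Cir1 passed in combined against control (-0.20, adjusted p = 0.0327). Spen varied most of the 28 tested members other than Notch1: it was 7.45, 8.84 and 9.26 FPKM in control, 7.60, 12.9 and 9.02 in Zmiz1-titled, 8.35, 11.3 and 5.43 in Notch1-titled and 7.36, 9.83 and 10.18 in combined libraries. The interval of its difference in Notch1-titled against control ran from -0.59 to 0.45, just past 1.5-fold lower, around a value of -0.07 that was 0.18 without Notch1-titled replicate 3.

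The intervals bound the differences. In Notch1-titled against control libraries, the 95% interval lay within 1.5-fold in either direction for 26 of the 28 tested members other than Notch1 and within 2-fold for all 28. Within 1.5-fold lay 89.5% of all genes tested, so this closeness is not particular to the pathway. The number within 1.5-fold was 27 of 28 in Zmiz1-titled against control (90.7% of all genes) and 26 of 28 in combined against control (89.8%). It was 26 of 28 in combined against Zmiz1-titled (89.9%) and 27 of 28 in combined against Notch1-titled libraries (92.6%). For the interaction it was 24 of 28 (83.2%). The median log2 difference of the 28 was -0.05 in Notch1-titled against control (21 negative, 7 positive). All 10152 genes tested gave 0.02 there (4360 negative, 5758 positive). The median of the 28 was -0.02 in Zmiz1-titled against control, where all genes gave 0.00. In combined against control it was -0.03, where all genes gave 0.02. These 3 comparisons share the control libraries. Groups did not overlap for 8 of the 28 in Notch1-titled against control, where 26.1% of all genes tested did not, 3 of 28 in Zmiz1-titled against control (17.9%), 6 of 28 in combined against control (33.6%), 4 of 28 in combined against Zmiz1-titled (21.0%) and 1 of 28 in combined against Notch1-titled (15.4%).

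**Figure D3:**
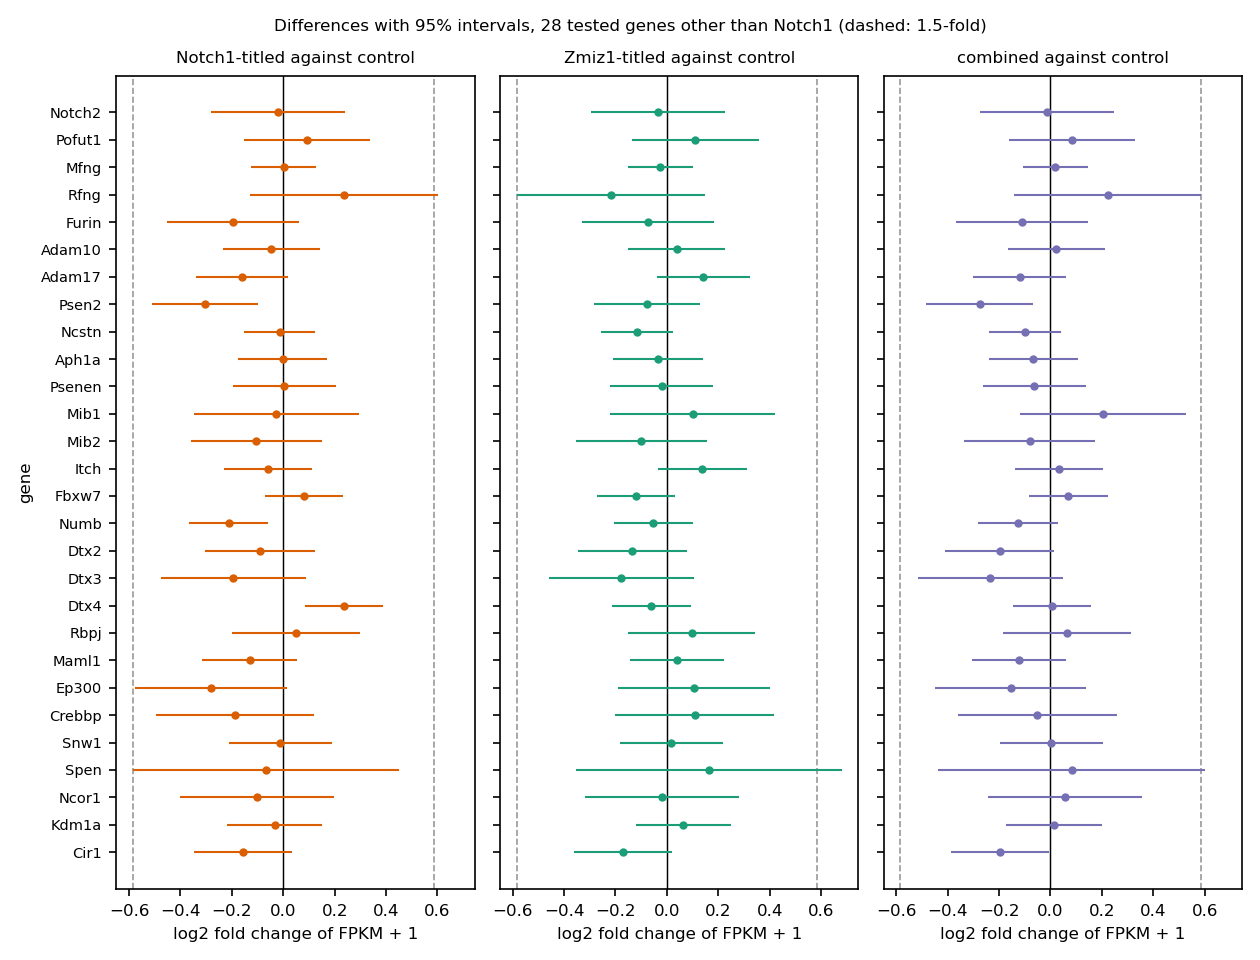
Log2 differences of FPKM + 1 with 95% limma intervals for the 28 tested members other than Notch1, in 3 comparisons with the same control libraries; dashed lines mark 1.5-fold. Nearly all intervals cross 0 and stay between the dashed lines, with 26, 27 and 26 of 28 inside them from left to right, and Rfng and Spen have the widest.

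Of the 12 libraries, 2 held most of the members' extreme values. Zmiz1-titled replicate 2 held the highest of the 12 values for 10 of the 28 members and the lowest for 5, where it held 22.6% and 22.3% of the extremes of all other genes tested. Notch1-titled replicate 3 held the highest for 3 and the lowest for 12, against 20.8% and 16.9%. In that library the level of a member went with the length of its longest annotated transcript. The 6 members of 8000 bases and above (Notch2, Mib1, Ep300, Crebbp, Spen and Ncor1) were all lower than in the other 2 Notch1-titled libraries, by a median log2 difference of -0.457, and the 13 members under 4000 bases were higher by a median of 0.0971. Over 29 members, Notch1 included, the correlation of this difference with log2 length was -0.923, a description of 1 library. Over the 7427 genes at a mean of 5 FPKM or more it was weaker, at -0.187. By class, 362 genes of 8000 bases and above had a median of -0.378 there, and 594 genes under 1000 bases 0.286. In the 9 libraries of the other groups the medians of the longest class lay between -0.0614 and 0.087. Notch1, with an annotated transcript of 9488 bases, differed by -0.713 in this library, and the length of the vector transcript is not given. In the fit corrected for length Notch1 rose by 3.57 in Notch1-titled against control (adjusted p = 5.08e-08).

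**Figure D4:**
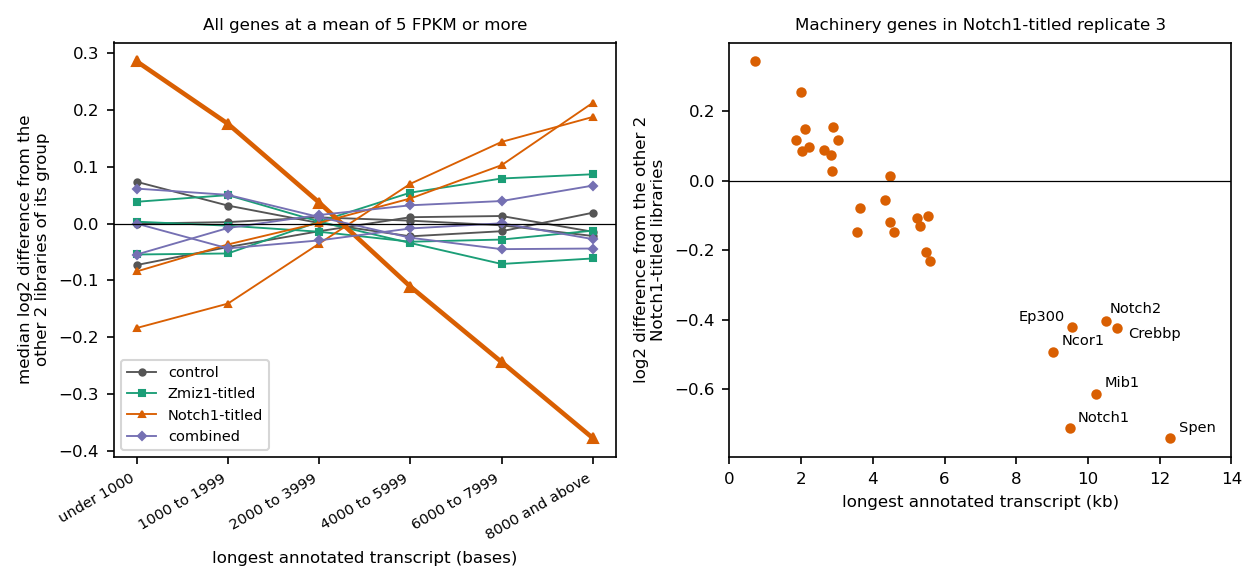
Left, median log2 difference of each library from the other 2 of its group by transcript length class, for the 7427 genes at a mean level of 5 FPKM or more, with Notch1-titled replicate 3 as the thick line; right, the same difference for each tested member in that library against its transcript length in kb. The thick line runs from 0.286 in the shortest class to -0.378 in the longest, and the members of 8000 bases and above lie at the lower right.

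Other genes of the pathway, from a list of 56 of which 54 were in the files, mostly gave no call either. Of the 36 with a mean of at least 1 FPKM, 1 rose and 0 fell in Notch1-titled against control (5.49% of all genes passed), 1 rose and 0 fell in combined against Zmiz1-titled (3.86%), and 2 rose and 1 fell in combined against control (6.46%). In Zmiz1-titled against control and in combined against Notch1-titled libraries 0 of 36 passed in limma, with 5 and 2 at an unadjusted p under 0.05 (12.8% and 9.0% of all genes tested), and for the interaction 0 of 36 passed and 0 had such a p. The genes were Tle1, a Groucho corepressor (4.12 ± 0.313 FPKM in control, 5.37 ± 0.0719 in Notch1-titled, 5.17 ± 0.302 in combined, adjusted p = 0.0246 and 0.0446 against control), Kat2a, a histone acetyltransferase (7.59 ± 0.457 in Zmiz1-titled against 11 ± 0.923 in combined, adjusted p = 0.00540, and 0.0230 for combined against control), and Dtx3l (12.1 ± 0.398 in control against 9.90 ± 0.478 in combined, adjusted p = 0.0379). Single-vector groups lay near the combined means: Dtx3l was at 9.77 ± 0.285 FPKM in Zmiz1-titled and Kat2a at 10.5 ± 0.839 in Notch1-titled libraries. Against control, neither of these was called in the main fit, and they passed in 4 and 3 of 23 alternatives. Kat2a lost its call in combined against Zmiz1-titled only with those groups alone in the fit (adjusted p = 0.0629). The other calls depended on single libraries, and those of Tle1 and Dtx3l on the processing too. In combined against control, Tle1 lost the call with no filter on low genes or a filter at 5 FPKM (adjusted p = 0.0768 in both) and with robust variances (0.0573), and Dtx3l with no filter (0.0528) and with robust variances (0.0568). In Notch1-titled against control, Tle1 lost it with only those groups in the fit (0.0532). Tle1 lost the call in Notch1-titled against control without control replicate 1 or 3 or any 1 Notch1-titled library (adjusted p 0.0528 to 0.103), and in combined against control without any 1 control or combined library, Zmiz1-titled replicate 1 or 3 or Notch1-titled replicate 1 or 2 (0.0519 to 0.171). Kat2a lost the call against control without any 1 control library or combined replicate 2 or 3 (0.0651 to 0.108), and Dtx3l without any 1 control or combined library, Zmiz1-titled replicate 1 or 3 or Notch1-titled replicate 2 (0.0506 to 0.165). The 5 listed genes Dlk1, Dner, Gxylt2, Hes1 and Hey1 were at 0 in all 12 libraries.

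Of 13 genes of that list under 1 FPKM but above 0 in some library, only Notch3 and Dtx1 passed. In that fit 3.56% of genes passed in Notch1-titled against control and 1.15% in combined against Notch1-titled. Both are known Notch targets as well as pathway components. Nrarp, also on the list, was not called (0.186 ± 0.0476 FPKM in control, 0.216 ± 0.0833 in Notch1-titled, 0.256 ± 0.0780 in combined). Hes1 was at 0 in all 12 libraries. Dtx1, the Deltex relative of Dtx4, was listed at 0 in all 3 control libraries and reached 0.0168 FPKM at most in Zmiz1-titled libraries. It was 1.48, 1.90 and 1.83 FPKM in Notch1-titled and 0.545, 0.515 and 0.663 in combined libraries. Notch3, a receptor of thymocytes, was at 0.0408, 0.0937 and 0.0698 FPKM in control, 0.0486, 0.0445 and 0.0344 in Zmiz1-titled, 1.63, 1.94 and 1.22 in Notch1-titled and 0.428, 0.330 and 0.443 in combined libraries. For both genes the Notch1-titled libraries were above the combined, and these above the rest. Both rose in Notch1-titled against control (adjusted p = 9.44e-07 for Dtx1 and 2.46e-05 for Notch3) and fell in combined against Notch1-titled libraries, to ratios of mean FPKM of 0.331 (Dtx1, adjusted p = 5.71e-05) and 0.2505 (Notch3, adjusted p = 5.82e-04). The fall was not called for Dtx1 with a pseudocount of 0.01 (adjusted p = 0.0637), nor for Notch3 with only those groups in the fit (0.0548). Dtx4 lay lower in combined than in Notch1-titled libraries too, at a ratio of 0.827 that missed the threshold. Notch1, viral and endogenous reads together, had a ratio of 1.11 in the same comparison, where its log2 difference changed sign without Notch1-titled replicate 3 (0.19 with it and -0.05 without).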

How the data were processed

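RNA sequencing measured gene expression in 12 libraries of the mouse line 8946, 4 groups of 3, made with a TruSeq mRNA v2 kit, per the labels' protocols. The authors deposited 1 FPKM value per gene symbol and library, per the file headers. The submitters' processing notes list the mm10 build and, among other tools, the aligner TopHat2 2.0.9 and the Cufflinks programs Cuffdiff 2.1.1 and Cufflinks, with no order or settings. Multi-mapped reads and scaling between libraries are not given in the sources used here. The values carry no counts, so no counting interval is given.

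Groups followed the titles. The members, roles and lists were chosen with earlier results of these data known. Values entered limma (version 3.58.1, R 4.3.3) as log2(FPKM + 1), in 1 model of 4 group means with an intensity trend, with two-sided p-values adjusted by Benjamini-Hochberg over the 10152 genes that averaged 1 FPKM or more and a threshold of 0.05. Genes under that mean come from the same model over the 16835 genes above 0 in any library. Fold changes on this scale understate those of low genes, so ratios of mean FPKM stand beside them. With 3 libraries on each side, 0.1 is the smallest p of an exact permutation test. The model was tested on simulated data. No 2 libraries held identical values.

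Named with values in every library were called members, Notch1 and the most and least abundant member of each role. The per-library values of Rfng, Psen2 and Dtx4, and Itgam, Pecam1, Epor and Col1a2 were chosen after their values were seen. Positions and transcript lengths are from GENCODE M21 (GRCm38, the assembly also called mm10), and promoters from RefSeq (GRCm38.p6). The alternatives changed the pseudocount (0.1, 0.01), the filter (none, 5 FPKM), the scaling (median ratios, quantiles), the model (replicate block, robust variances, only the groups compared) or the libraries (each left out in turn). Leaving out both libraries that stood apart and a transcript length correction were chosen after seeing the data. Plots used matplotlib 3.10.9 under Python 3.11.15. Some listed genes are not reported here.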

Additional observations from a re-analysis of the deposited data

Results flagged for a closer look

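The interaction term of the limma model was called for 2 pathway genes outside the 38 members, Dtx1 and Notch3. It asks whether the change made by the Notch1 vector differed between cells without and with the Zmiz1 vector. These 2 were among 13 listed genes under 1 FPKM but above 0 in some library. In that fit 0.107% of 16835 genes passed for the interaction. The list was chosen with earlier results of these data known. For Dtx1 the interaction was -0.81 on the log2(FPKM + 1) scale (adjusted p = 0.00262), and it passed in 21 of 22 alternatives (adjusted p 1.85e-04 to 0.402), the exception being a pseudocount of 0.01 (-2.33, adjusted p = 0.402). For Notch3 it was -0.85 (adjusted p = 0.0310) and passed in 9 of 22 alternatives (adjusted p 0.00135 to 0.967). The Notch3 call was lost with pseudocounts of 0.1 (-1.52, adjusted p = 0.116) and 0.01 (-1.43, adjusted p = 0.967), with the replicate block (adjusted p = 0.0851), and without any 1 control, Zmiz1-titled or combined library or Notch1-titled replicate 1 (adjusted p 0.0784 to 0.109). Among the members, Dtx4 had an interaction of -0.17, which did not pass (adjusted p = 0.999).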

How the results depend on the processing

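The count of members called (38 members, those under 1 FPKM included) was 1 in combined against Zmiz1-titled, 0 in Zmiz1-titled against control and 0 for the interaction under every alternative run (only the groups compared cannot be run for the interaction). In Notch1-titled against control it was 1 and became 2 without both libraries that stood apart and 2 with the transcript length correction, each time by Dtx4, and ranged from 1 to 2 when each library was left out in turn, by Psen2 without control replicate 2 and Dtx4 without Zmiz1-titled replicate 2. In combined against Notch1-titled it was 0 and became 1 in both of those alternatives, and ranged from 0 to 1 over the libraries left out. In combined against control it was 2 and ranged from 1 to 2 over the libraries left out. It was 3 with the replicate block, which added Cir1 (-0.20, adjusted p = 0.0327), and 3 with only the groups compared and without both libraries that stood apart, which added Maml2. The causes were not tested. Notch1 passed in all 23 alternatives of each comparison with the Notch1 vector. Counts over all genes moved more. With the replicate block they were 1059 (557 without it) in Notch1-titled against control, 721 (392) in combined against Zmiz1-titled, 365 (214) in Zmiz1-titled against control, 260 (153) in combined against Notch1-titled and 1158 (656) in combined against control. Without both libraries that stood apart, the last 4 of these were 650, 353, 283 and 1565. With only the groups compared, combined against Zmiz1-titled gave 155, Zmiz1-titled against control 49 and combined against control 1386. The filter at 5 FPKM gave 121 in Zmiz1-titled against control and 101 in combined against Notch1-titled. Over the libraries left out in turn, and in the order above, counts ran from 272 to 989, 184 to 505, 74 to 241, 75 to 306 and 339 to 1090. The interaction had 7 calls, 18 without a filter, 3 with either pseudocount or the higher filter and 4 with quantile normalization. Quantile normalization changed the share of calls that were higher from 58.2% to 47.5% in Notch1-titled against control and from 61.4% to 48.1% in combined against control, and the length correction from 61.4% to 49.4% in the latter and from 69.1% to 58.3% in combined against Zmiz1-titled. Whether replicate numbers pair libraries was not settled, and the main model leaves the number out. Deviations of the 18 same-numbered pairs correlated at -0.176 to 0.267 (median 0.043), and 6 were over 0.1. The 36 differently numbered pairs had a median of -0.021. By mean correlation, 9 of 12 libraries went best with their own number. FPKM without counts leave the precision of members near 0 unknown.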
